A study of Mus musculus with 2 samples.

Results

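The G2 and mitosis genes are 51 genes whose transcripts are commonly scored to place a single cell in the last gap phase or in mitosis. They were taken by symbol from a widely used gene list for that score, with earlier results of these data known. Each of the 51 symbols was found once among the 28001 features of the septal explant library and once among the 32286 features of the telencephalic vesicle library. The study asked how the transcription factor Dbx1 and the adhesion molecule Pcdh8 act in cortical development, and the cells analysed here are its 2 single-cell libraries of the developing mouse forebrain, strain C57BL/6J, genotype labelled wild-type. The septal explants pooled 8 E11.5 embryos with the PGKCre and Rosa26YFP alleles, in which Cre is active in all cells and turns on YFP, and 4 E12.5 embryos with Dbx1Cre and Rosa26tdTomato, in which cells with a history of Dbx1 expression turn on tdTomato. Each of these genotypes came from 2 litters. The telencephalic vesicle library pooled 3 wild-type embryos from 2 litters, labelled E12 and described in the methods as aged E11.5 to E12. Embryos could not be told apart within a library, so that each library is 1 sample, no significance test was made, and neither cells nor genes are replicates.

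A cell that has copied its DNA passes through G2 and then divides. The kinase CDK1 and its cyclins drive entry into mitosis, kinetochores tie chromosomes to spindle microtubules, the spindle checkpoint delays anaphase until all are tied, the anaphase-promoting complex ends mitosis, and the contractile ring separates the daughters. Many of these genes are repressed in G1 and switched on late in the cycle through 2 kinds of promoter element, the CHR, bound by the MuvB core of the DREAM complex, and CCAAT boxes, bound by NF-Y. In the early telencephalon, apical progenitors (APs) divide at the ventricle, basal progenitors (BPs) divide away from it, and neurons have left the cycle.

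The septal explant library held 5827 barcodes with a median of 12722 UMIs, and 5384 were kept. The telencephalic vesicle (E12) library held 14283 barcodes with a median of 8503 UMIs, and 11758 were kept. The libraries shared 1 barcode. A UMI marks 1 caught transcript molecule, read from its 3′ end, so that a UMI level need not grow with transcript length. Whether intronic reads were counted is not given, and a dependence of levels on gene length was not tested. Levels are given as a percent of all UMIs of a class or, for single genes, as CPM, the same share on a finer scale, on which 1% of all UMIs is 10000 CPM. Clustering used none of the 51 genes and none of the other cell cycle genes, and a class called X-like is named from its markers only. Summed over the class, the 9 AP markers stood at 2756 CPM in the APs of the septal explants, the 7 BP markers at 4190.4 CPM in the BPs and the 11 neuronal markers at 12892 CPM in the neurons. In the telencephalic vesicle these sums were 3161, 3059 and 8965 CPM. Clusters were named by these same markers, so that high sums follow from the naming and do not test it. A ventral pallium (VP)-like class of 334 cells was found in the telencephalic vesicle only, and not there either with a coarser clustering or another random start. Class borders moved with the clustering, and levels that turned with it are given as such.

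Since the genes are known for a shared promoter logic, the promoters of 6 of them are shown first, with windows of RefSeq on GRCm38.p6. They were picked by the position of the genes in the results, since Gas2l3, Ube2c, Cdc20 and Cenpf had the lowest and Tmpo and Cbx5 the highest ratios between APs rich and APs poor in S phase transcripts in the telencephalic vesicle. Each line runs from 120 bases before the annotated start to 30 bases from it on, 5′ to 3′ on the strand of the gene. Capitals mark matches on either strand to TTTGAA (the CHR element), to its variant TTCGAA and to CCAAT. Gas2l3 lies on chr10:89443938-89444087 (minus strand), Ube2c on chr2:164769809-164769958 (plus), Cdc20 on chr4:118437314-118437463 (minus), Cenpf on chr1:189688057-189688206 (minus), Tmpo on chr10:91171590-91171739 (minus) and Cbx5 on chr15:103239823-103239972 (minus).
Gas2l3: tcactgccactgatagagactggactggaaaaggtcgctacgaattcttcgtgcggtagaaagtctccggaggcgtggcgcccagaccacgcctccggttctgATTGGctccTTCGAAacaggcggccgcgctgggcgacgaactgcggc
Ube2c: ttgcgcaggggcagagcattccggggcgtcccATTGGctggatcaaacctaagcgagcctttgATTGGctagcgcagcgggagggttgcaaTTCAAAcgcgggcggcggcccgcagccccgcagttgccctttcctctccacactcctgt
Cdc20: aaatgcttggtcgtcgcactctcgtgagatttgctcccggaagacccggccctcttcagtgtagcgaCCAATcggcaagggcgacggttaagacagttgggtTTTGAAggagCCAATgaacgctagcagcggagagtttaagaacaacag
Cenpf: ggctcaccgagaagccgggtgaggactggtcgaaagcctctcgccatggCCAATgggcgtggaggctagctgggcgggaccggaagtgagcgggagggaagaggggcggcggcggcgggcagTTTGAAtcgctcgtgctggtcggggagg
Tmpo: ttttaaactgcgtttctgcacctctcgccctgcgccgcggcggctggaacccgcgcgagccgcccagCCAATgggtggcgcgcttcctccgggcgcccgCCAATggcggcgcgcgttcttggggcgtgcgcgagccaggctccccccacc
Cbx5: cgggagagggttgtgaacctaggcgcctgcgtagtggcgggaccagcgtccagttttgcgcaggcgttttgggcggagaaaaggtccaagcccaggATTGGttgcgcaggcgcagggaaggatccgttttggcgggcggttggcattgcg

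Gas2l3 held the variant element and a CCAAT box next to each other. Ube2c, Cdc20 and Cenpf held TTTGAA with CCAAT boxes before it, and in Cdc20 also after it. Tmpo and Cbx5 held CCAAT boxes but neither CHR form. This split between the printed genes did not hold over the list. Lbr and Anp32e, with S phase ratios of 0.905 and 0.941 in the telencephalic vesicle, held a CHR form in their windows. Cenpe and Cks2, with ratios of 0.361 and 0.396 there, held none. Of the 51 genes, 45 had a window in the table, each of 300 bases from 250 before the start to 50 from it on, and Tpx2, Cdc25c, Dlgap5, Cdca2, Aurkb and Smc4 had none. The motifs were counted separately, so that overlapping matches would both count. TTTGAA was found in 31 of the 45 (68.9%), against 18.1% of all 27025 windows of that length. The variant TTCGAA was found in 4 (8.89%, against 1.57% of all windows). Either form stood between 50 bases before the start and the end of the window in 28 genes (62.2%), against 5.29% of all windows. At least 1 CCAAT box was found in 35 genes (77.8%, against 37.9%) and at least 2 boxes in 28 (62.2%, against 12.2%). A CHR form together with at least 2 CCAAT boxes was found in 24 genes (53.3%), against 2.43% of all windows. Neither a CHR form nor CCAAT was found in the windows of Birc5, G2e3, Nuf2, Nusap1 and Tacc3. These are matches of letters, and no binding was measured in these data.

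The 51 genes together took about 1% of the UMIs of a progenitor. In the septal explants they made up 1.07% of the UMIs of the 3411 APs (exact Poisson 95% interval 1.07 to 1.08), 0.746% of those of the 674 BPs (0.740 to 0.752) and 0.206% of those of the 907 neurons (0.203 to 0.208). In the vesicle library the shares were 1.09% in 6882 APs, 1.13% in 585 BPs (1.12 to 1.14) and 0.297% in 1664 neurons (0.294 to 0.300). These intervals cover counting error only, and no interval given here says anything about the spread between embryos. APs and BPs thus stood well above neurons in both libraries, and BPs stood below APs in the septal explants. The order of BPs and APs in the telencephalic vesicle turned with the processing, with BPs below APs in 5 of 7 alternatives, and in the septal explants the largest of 3 BP-like clusters (308 cells, 1.11%) lay above the APs.

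**Figure D1:**
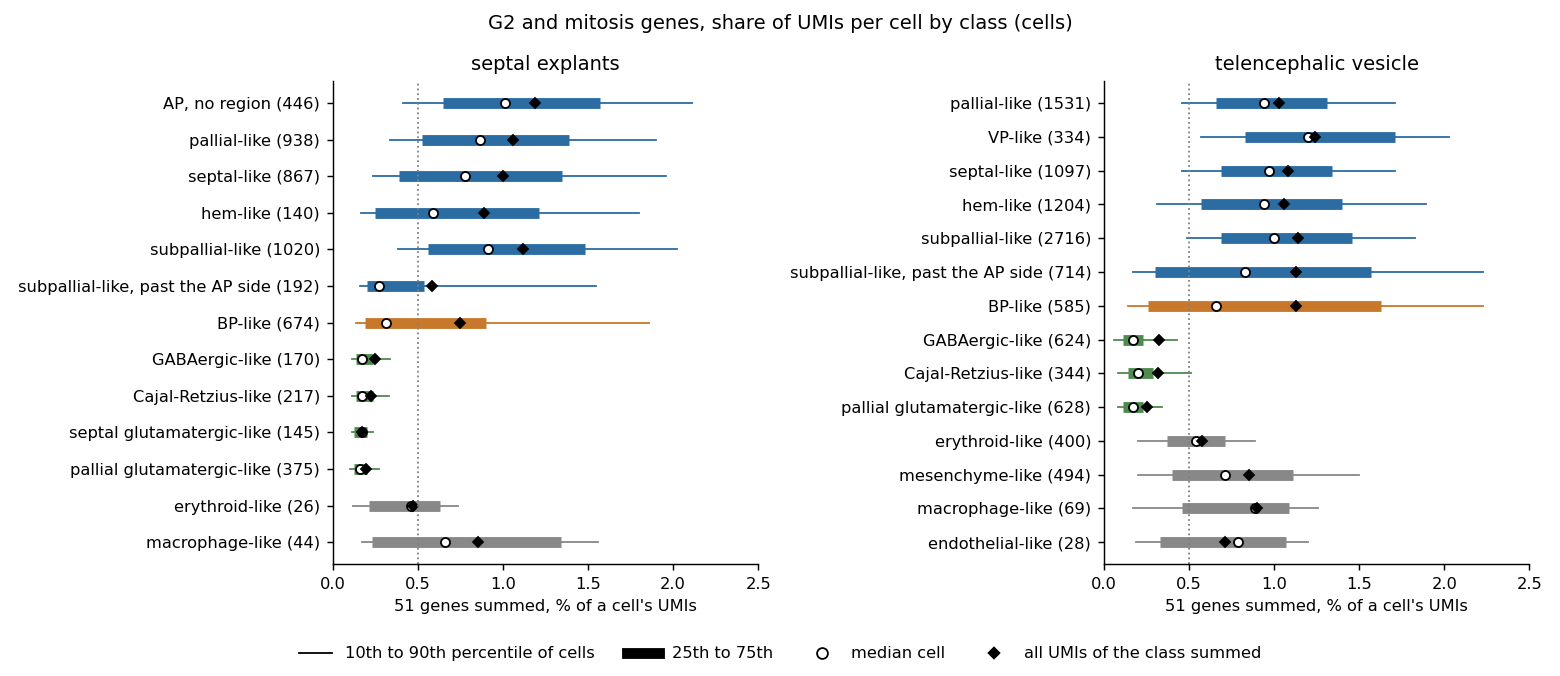
Share of the UMIs of a cell that came from the 51 G2 and mitosis genes (percent, horizontal axis), by class and library, after thinning to equal depth within a library. Lines run from the 10th to the 90th percentile of cells and bars from the 25th to the 75th, white circles are medians, black diamonds are all UMIs of the class summed, and the dotted line is the 0.5% threshold. Medians of all AP regions lie above the threshold and those of neuronal classes below it, and BPs span both sides, with medians of 0.312% in the explants and 0.657% in the vesicle.

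Neuronal classes differed in their summed levels. In the explant library septal glutamatergic-like neurons held 0.172% (0.166 to 0.178), pallial glutamatergic-like neurons 0.194%, Cajal-Retzius-like neurons 0.223% and GABAergic-like neurons 0.248% (0.241 to 0.255). In the E12 library pallial glutamatergic-like neurons held 0.255%, Cajal-Retzius-like neurons 0.319% (0.313 to 0.325) and GABAergic-like neurons 0.322% (0.317 to 0.327). The sum of GABAergic-like neurons thus stood above that of pallial glutamatergic-like neurons in both libraries. In the median cell of the vesicle library both classes were equal, at 0.171%. The GABAergic-like sum there rested on 52 cells at 1.56%, with the other 559 at 0.170%. In the septal explants the median cell was at 0.163% in pallial glutamatergic-like neurons. It was at 0.175% in septal glutamatergic-like, GABAergic-like and Cajal-Retzius-like neurons, so that the order of the sums did not hold in the median cell. Among the GABAergic-like neurons of the explants, 7 cells chosen in the same way, at 1.82%, held 30.1% of the UMIs of these genes. The other 145 were at 0.183%. Top2a, which untangles replicated DNA, was at 27.3 CPM in GABAergic-like neurons against 21.0 CPM in pallial glutamatergic-like neurons of the septal explants, and at 121 against 65.2 CPM in the telencephalic vesicle. The Cajal-Retzius-like class of the telencephalic vesicle joined a cluster of 153 cells at 0.167% and a cluster of 191 cells at 0.447%. Among cells outside the neural lineage in that library, erythroid-like cells held 0.574%, endothelial-like cells 0.710%, mesenchyme-like cells 0.850% and macrophage-like cells 0.897%. Clusters left unnamed held 1.14% in both libraries, at median depths of 5180.5 UMIs (130 cells) and 1066 UMIs (922 cells). The erythroid-like cells of the telencephalic vesicle differed from APs in their mix, with Mki67, the common proliferation marker, at 312 CPM against 209 CPM in APs, and Hmgb2, a chromatin protein, at 829.7 against 1929 CPM.

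The difference between APs and neurons was shared by nearly all of the genes. In the septal explants the summed level was 5.23-fold higher in APs than in neurons (5.16 to 5.29), and 46 of the 51 genes were at least 2-fold higher, as were 18.3% of all genes with at least 50 UMIs in both classes together. The median gene of the 51 had a ratio of 8.78, against 0.985 over all genes tested. The telencephalic vesicle gave a summed ratio of 3.68 (3.64 to 3.71) and 47 of 51 genes at least 2-fold higher, against 20.1% of all genes. The median ratio there was 4.83, against 1.06 over all genes. G2e3, Rangap1, Cbx5 and Ckap5 were short of 2-fold in both libraries, and Anp32e was short of it in the septal explants (1.95) and past it in the telencephalic vesicle (2.08). All 51 genes passed the minimum of 50 UMIs, and none was at 0 in APs, BPs or neurons.

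**Figure D2:**
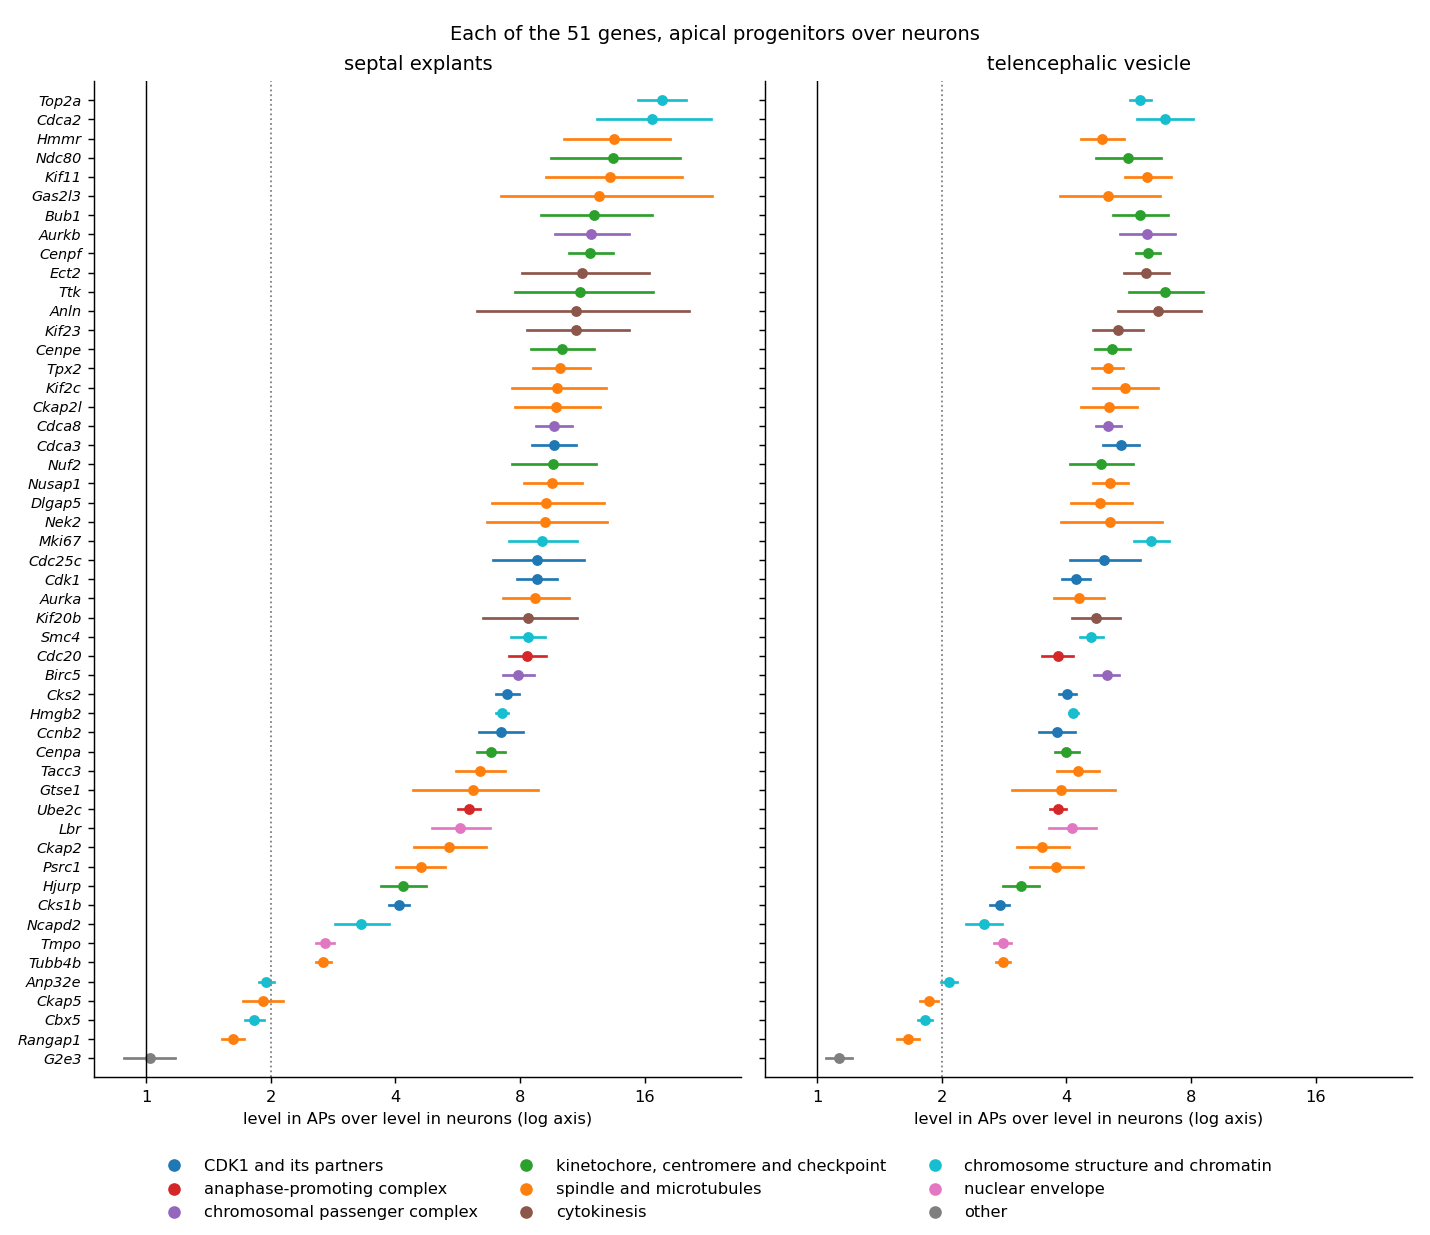
Level in APs over level in neurons for each of the 51 genes (log axis, CPM ratio) in the septal explants and the telencephalic vesicle, coloured by role, with 95% intervals from counting error. The solid line is 1 and the dotted line is 2-fold, which all but G2e3, Rangap1, Cbx5, Ckap5 and, in the septal explants, Anp32e lie past.

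The motor of mitotic entry followed this pattern. CDK1 and its partners (6 genes) were 6.43-fold higher in APs than in neurons in the septal explants and 3.77-fold higher in the telencephalic vesicle, and each of the 6 was past 2-fold in both. Cks2, a small subunit that binds CDK1, had the highest level of the group, with 666 CPM in APs, 468 in BPs and 89.3 in neurons of the septal explants. In the telencephalic library it stood at 497, 505 and 124 CPM. Cdk1 itself was at 252, 222 and 28.6 CPM in APs, BPs and neurons of the septal explants and at 225, 239 and 53.2 CPM in the telencephalic vesicle. Cdc25c, the phosphatase that activates CDK1, was low throughout, at 50.4 CPM in APs and 45.9 CPM in BPs of the septal explants (ratio of BPs to APs 0.911, 0.815 to 1.02). In the telencephalic vesicle it was at 41.0 and 59.4 CPM, and its ratio of BPs to APs was the highest of the 51 genes there (1.45, 1.28 to 1.63).

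The exit from mitosis was represented by the ubiquitin-conjugating enzyme Ube2c and the activator Cdc20, both of the anaphase-promoting complex. Ube2c stood at 583 CPM in APs, 506 in BPs and 96.8 in neurons of the septal explants, and at 658, 851 and 172 CPM in the telencephalic vesicle. Cdc20 was at 278, 219 and 33.4 CPM in the septal explants and at 164, 203 and 43.2 CPM in the telencephalic vesicle. Apart from G2e3, which stands alone, this pair had the highest summed ratio of BPs to APs of any role, 0.842 in the explants and 1.28 in the vesicle.

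The chromosomal passenger complex, which corrects faulty attachments of chromosomes, was below the AP level in BPs, as were many other genes. Its 3 genes together had ratios of BPs to APs of 0.583 in the explants and 0.907 in the vesicle, and each of the 3 was below 1 in both. In the explants all 51 genes were below 1. In the vesicle the median over all genes tested was 0.885, and the order of the summed level turned with the processing. Birc5, or survivin, stood at 372 CPM in APs, 208 in BPs and 47.0 in neurons of the septal explants and at 306, 261 and 61.2 CPM in the telencephalic vesicle. Aurkb, the kinase of the complex, was 11.9-fold higher in APs than in neurons of the septal explants (9.71 to 14.7) and 6.27-fold higher in the telencephalic vesicle.

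Kinetochore, centromere and checkpoint genes (8) were 8.05-fold and 4.97-fold higher in APs than in neurons in the septal explants and the telencephalic vesicle, all 8 past 2-fold. Cenpa, the histone variant that marks centromeres, had the highest level of them in the APs of the septal explants with 383 CPM, and Cenpf, a large kinetochore protein, in those of the telencephalic vesicle with 417 CPM. In neurons Cenpf stood at 23.1 CPM in the septal explants and 66.2 CPM in the telencephalic vesicle. Ndc80, which holds the microtubule end, was at 38.9 CPM in APs and 2.91 CPM in neurons of the septal explants (ratio 13.4, 9.51 to 19.5). Ttk, the checkpoint kinase also called Mps1, had the highest ratio of APs to neurons of the telencephalic vesicle (6.94, 5.68 to 8.55), and one of the lowest of BPs to APs (0.775, 0.670 to 0.892). Hjurp, the chaperone of Cenpa, was likewise low in BPs of that library (0.748, 0.671 to 0.830), while the kinesin motor Cenpe was higher in them (1.25, 1.17 to 1.33).

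The 17 spindle and microtubule genes were a mixed group. Their sum was 3.74-fold higher in APs than in neurons in the septal explants and 3.17-fold higher in the telencephalic vesicle, with 15 of 17 past 2-fold in each. Hmmr, a spindle protein, was at 57.2 CPM in APs and 4.23 CPM in neurons of the septal explants (ratio 13.5, 10.2 to 18.4), and the spindle motor Kif11 at 35.0 and 2.64 CPM (13.2, 9.23 to 19.7). In the vesicle library their ratios were 4.88 and 6.27. Gas2l3, which links actin to microtubules, was scarce, with 14.2 CPM in APs and 1.15 CPM in neurons of the septal explants and 20.9 and 4.15 CPM in the telencephalic vesicle. Tubb4b, a β-tubulin and the most abundant gene of the group, was at 591 CPM in APs, 336 in BPs and 221 in neurons of the septal explants and at 528, 392 and 188 CPM in the telencephalic vesicle, where it had the lowest ratio of BPs to APs of the 51 genes (0.742, 0.709 to 0.776). Rangap1, which acts in nuclear transport through the whole cycle, had ratios of APs to neurons of only 1.62 and 1.66, and Ckap5, a microtubule polymerase, of 1.91 and 1.86. Aurka, a kinase of spindle poles, was among the genes with the highest ratio of BPs to APs in the septal explants (0.908, 0.837 to 0.984). Hmmr (1.29, 1.2 to 1.4) and Dlgap5 (1.26, 1.12 to 1.4), a spindle protein regulated by that kinase, were among the highest in the telencephalic vesicle.

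Cytokinesis genes (4) had the largest summed ratio of any role, 10 in the explants and 5.58 in the vesicle. Kif23, a motor of the central spindle, was the most abundant of them in the septal explants at 50.1 CPM in APs, 32.4 in BPs and 4.58 in neurons. Ect2, the activator of RhoA at the cleavage site, was the most abundant in the telencephalic vesicle at 125, 102 and 20 CPM, a ratio of APs to neurons of 6.24 (5.52 to 7.08). Anln, the scaffold anillin, was at 12.4 CPM in APs and 1.15 CPM in neurons of the septal explants, a ratio of 10.9 (6.31 to 20.5), and had a ratio of 6.66 (5.32 to 8.46) in the telencephalic vesicle.

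Among the 8 genes of chromosome structure and chromatin, Hmgb2 alone gave 2199 CPM in APs, 1472 in BPs and 304 in neurons of the septal explants and 1929, 2265 and 464 CPM in the telencephalic vesicle. It was the most abundant of the 51 genes in each of these classes. Top2a stood at 353, 202 and 20.1 CPM in the septal explants, and its ratio of APs to neurons was the highest of the 51 genes there (17.6, 15.4 to 20.1). In the E12 library it was at 539.6, 559 and 89.4 CPM, a ratio of 6.04. Cdca2, which recruits phosphatase to anaphase chromatin, came next in both libraries, with ratios of 16.7 (12.3 to 23.2) and 6.91 (5.93 to 8.11). Mki67 was 9.05-fold and 6.42-fold higher in APs than in neurons. At the other end, Cbx5, the heterochromatin protein HP1α, was at 254 CPM in APs and 139 CPM in neurons of the septal explants and at 396 and 218 CPM in the telencephalic vesicle. Anp32e, a histone chaperone, stood at 416 and 213 CPM and at 346 and 166 CPM. In BPs over APs, Cbx5 (0.969, 0.924 to 1.02) and Anp32e (0.913) were among the highest and Mki67 (0.514, 0.461 to 0.571) among the lowest of the septal explants, and Smc4, a condensin subunit, among the lowest of the telencephalic vesicle (0.764, 0.722 to 0.807).

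The nuclear envelope genes Tmpo and Lbr were past 2-fold in APs over neurons. Their summed ratio of BPs to APs was 0.589 in the explants, where all 51 genes were below 1. It was 0.813 in the vesicle, against a median of 0.885 over all genes tested. Tmpo, a lamina-associated protein, stood at 402 CPM in APs, 239.8 in BPs and 149 in neurons of the septal explants and at 411, 328 and 146 CPM in the telencephalic vesicle. Lbr, the lamin B receptor, had a ratio of BPs to APs of 0.551 (0.493 to 0.613) in the explants and 0.884 in the vesicle. G2e3, a ubiquitin ligase named for G2, did not follow the list. It was at 21.2 CPM in APs, 20.5 in BPs and 20.9 in neurons of the septal explants, a ratio of APs to neurons of 1.02 (0.882 to 1.17). In the telencephalic library it was at 76.2, 96.4 and 67.5 CPM, a ratio of 1.13 (1.05 to 1.21), with BPs above APs (1.26, 1.15 to 1.39).

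Between BPs and APs the libraries gave different orders, and no test of that difference could be made. The APs in these and all earlier ratios were pooled over regions, so that region and stage are not separated in them. Pallial-like APs alone held 1.06% in the explants, against 0.746% in BPs, and 1.03% in the vesicle, against 1.13% in BPs. In the explant library the summed ratio of BPs to APs was 0.695 (0.689 to 0.701), and all 51 genes were below the AP level. The median ratio of the 51 genes was 0.670, against 0.964 over all genes tested. Anln was lowest, at 4.26 CPM in BPs (0.342, 0.235 to 0.483), followed by Mki67, Lbr, Ect2 (0.552) and Birc5 (0.559). In the telencephalic vesicle 26 genes were above and 25 below the AP level, with a median ratio of 1.01, against 0.885 over all genes. The summed ratio put BPs above APs there, at 1.03 (1.02 to 1.04). That order turned in 5 of the 7 alternatives run, which ranged from 0.906 to 1.01, while the ratio of the septal explants ranged from 0.620 to 0.808. At least 2-fold higher in BPs were 0 genes in either library, against 8.98% of all genes in the explants and 7.04% in the vesicle. At least 2-fold lower were 1 gene, Anln, in the septal explants, against 10.6% of all genes, and 0 in the telencephalic vesicle, against 17.9%. Genes of S phase gave lower ratios than the 51 genes. In the septal explants 31 of 55 were at least 2-fold lower in BPs than in APs, against 10.6% of all genes. Their median ratio was 0.491, against 0.670 for the 51 genes. In the vesicle library 11 of 55 were, a share near the 17.9% of all genes. The median of the S phase genes there was 0.593, against 1.01 for the 51 genes and 0.885 over all genes.

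The sums hid a wide spread among BPs. For shares of cells, cells were thinned to 8000 UMIs each in the septal explants and to 3500 UMIs in the telencephalic vesicle, and shallower cells were left out (182 APs of the explants and 90 of the vesicle). Of the BPs, 102 of 674 were left out in the explants and 10 of 585 in the vesicle. The share of the 51 genes ran from 0.312% at the 10th percentile over a median of 0.875% to 1.96% at the 90th percentile in the APs of the septal explants. In the BPs it ran from 0.138% over 0.312% to 1.86%, and in the neurons from 0.1% over 0.163% to 0.287%. The percentiles of the telencephalic vesicle were 0.457%, 0.971% and 1.8% in APs, 0.143%, 0.657% and 2.23% in BPs, and 0.0857%, 0.171% and 0.429% in neurons. At the 10th percentile BPs thus lay nearer to neurons than to APs, and at the 90th nearer to APs.

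At a threshold of 0.5% of UMIs, 76.3% of the APs of the septal explants (Clopper-Pearson 95% interval 74.8 to 77.7) and 87.1% of those of the telencephalic vesicle (86.3 to 87.9) were at or above it. Within 10% of this threshold lay 269 and 500 APs, so that cells above and below it are ranges and not cell types. Before thinning these shares were 74.4% and 88.9%, and those of the BPs were 31.3% and 55.2%. Of the BPs, 35.5% in the septal explants (31.6 to 39.6) and 54.8% in the telencephalic vesicle (50.6 to 58.9) were at or above it. The 203 such BPs of the septal explants had a level of 1.5% and held 82.9% of the UMIs of the 51 genes in BPs, and the other 369 had 0.240%. In the E12 library 315 BPs at 1.62% held 91.6%, and the other 260 had 0.262%. BPs at or above the threshold were chosen by the same 51 genes, so that these large parts follow partly from the choice. The 3 BP-like clusters of the septal explants stood apart, at 1.11% (308 cells), 0.425% (105 cells) and 0.296% (261 cells), and their mix sets the level of the class. BPs below the threshold had neuronal markers at 6914 CPM against 4218 CPM above it in the septal explants, and at 5195 against 4159 CPM in the telencephalic vesicle.

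A small share of neurons held a larger share of the signal of neurons. These cells were chosen by a high sum of the same 51 genes, so that this follows partly from the choice. In the septal explants 28 neurons at or above the threshold (3.29%, 2.19 to 4.71) held 17.7% of the UMIs of the 51 genes in neurons, and in the telencephalic vesicle 119 (7.58%, 6.32 to 9.0) held 46.4%. Their levels were 0.927% and 1.19%, against 0.176% and 0.179% in the remaining neurons. Neuronal markers stood lower in them, at 9115 against 13146 CPM and at 5155 against 9479 CPM, and AP markers higher, at 1517 against 985 CPM and at 1533 against 834 CPM. Fewer doublets were called than the rate expected from the number of barcodes, 1.10% against 4.36% in the explants and 5.72% against 9.98% in the vesicle. The part that cells at class borders or undetected doublets have in these values was not tested. Of the GABAergic-like neurons, 4.61% (7 cells) and 8.51% (52 cells) were at or above the threshold, against 3.01% and 5.04% of the pallial glutamatergic-like neurons. Cajal-Retzius-like neurons were not below the GABAergic-like ones, at 4.64% and 10.3%. Septal glutamatergic-like neurons of the explants were at 0.709%. In the explants the intervals of GABAergic-like (1.87 to 9.26) and pallial glutamatergic-like neurons (1.51 to 5.33) overlapped widely. The 7 and 52 cells held 30.1% and 53% of the UMIs of the 51 genes in GABAergic-like neurons.

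In the neurons below the threshold, the mix of the 51 genes was not that of APs. These neurons were chosen by a low sum of the same 51 genes and the APs were not. Low levels in these neurons are thus partly set by the choice, and the values describe them and test nothing. Hmgb2, Tubb4b, Anp32e, Tmpo and Cbx5 together gave 52.5% of the UMIs of the 51 genes in them in the septal explants, against 35.9% in APs, and 48.0% against 33.1% in the telencephalic vesicle. The median gene was at 0.0889 and 0.0878 of its AP level. Top2a (0.0419), Cdca2 (0.0425) and Hmmr (0.0441) were lowest relative to APs in the septal explants, and Cdca2 (0.0371), Cenpf (0.0438) and Kif11 (0.0454) in the telencephalic vesicle. Rangap1 stood at 0.592 and 0.519 of its AP level, Cbx5 at 0.540 and 0.502, and G2e3 at 0.991 and 0.826. Free RNA from broken cells also gives UMIs in droplets, and the 6 erythroid markers summed to 543 CPM in neurons of the septal explants and 5703 CPM in those of the telencephalic vesicle. Its part in the low levels was not tested.

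A course towards pallial neurons was approximated with pallial-like and VP-like APs, all BPs and pallial glutamatergic-like neurons. They were ordered by the difference of neuronal and AP markers and divided into 10 groups of equal size. Other neuronal classes were left out, and which neurons the BPs give rise to was not tested, so that this is not a traced lineage. In the septal explants BPs made up 96.0% of group 6 and 49.2% of group 9. In the explant library the share of the 51 genes was 1.11%, 1.09%, 1.09%, 0.966%, 0.962%, 0.878%, 0.601%, 0.587%, 0.356% and 0.166% from the most AP-like to the most neuronal group. In the telencephalic library it was 1.17%, 1.12%, 1.1%, 1.09%, 1.02%, 0.960%, 1.1%, 0.883%, 0.456% and 0.235%. BP markers peaked in group 6 of the septal explants, at 5231 CPM, and in group 7 of the telencephalic vesicle, at 2772 CPM. The share was thus lower in every group after that peak than at it in both libraries.

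Medians went down earlier than sums. The median cell of the septal explants was at 0.721% in group 5, 0.446% in group 6, 0.258% in group 7 and 0.206% in group 8, while the 90th percentile was at 1.86%, 2.09%, 1.37% and 1.68% and then at 0.354% in group 9. In the telencephalic vesicle the medians of groups 7 to 9 were 0.832%, 0.278% and 0.185%, and the 90th percentiles 2.08%, 2.1% and 0.978%. Ube2c was at 695 CPM in the first group, 592 in group 6 and 42.2 in the last group of the septal explants. In the vesicle library it was at 721 CPM in the first group, at 769 and 775 CPM in groups 7 and 8, and at 123 CPM in the last. Top2a went from 347 CPM in the first group to 14.2 CPM in the last in the septal explants and from 599 to 67.1 CPM in the telencephalic vesicle. Cbx5 went only from 210.3 to 146 CPM and from 339 to 235 CPM.

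**Figure D3:**
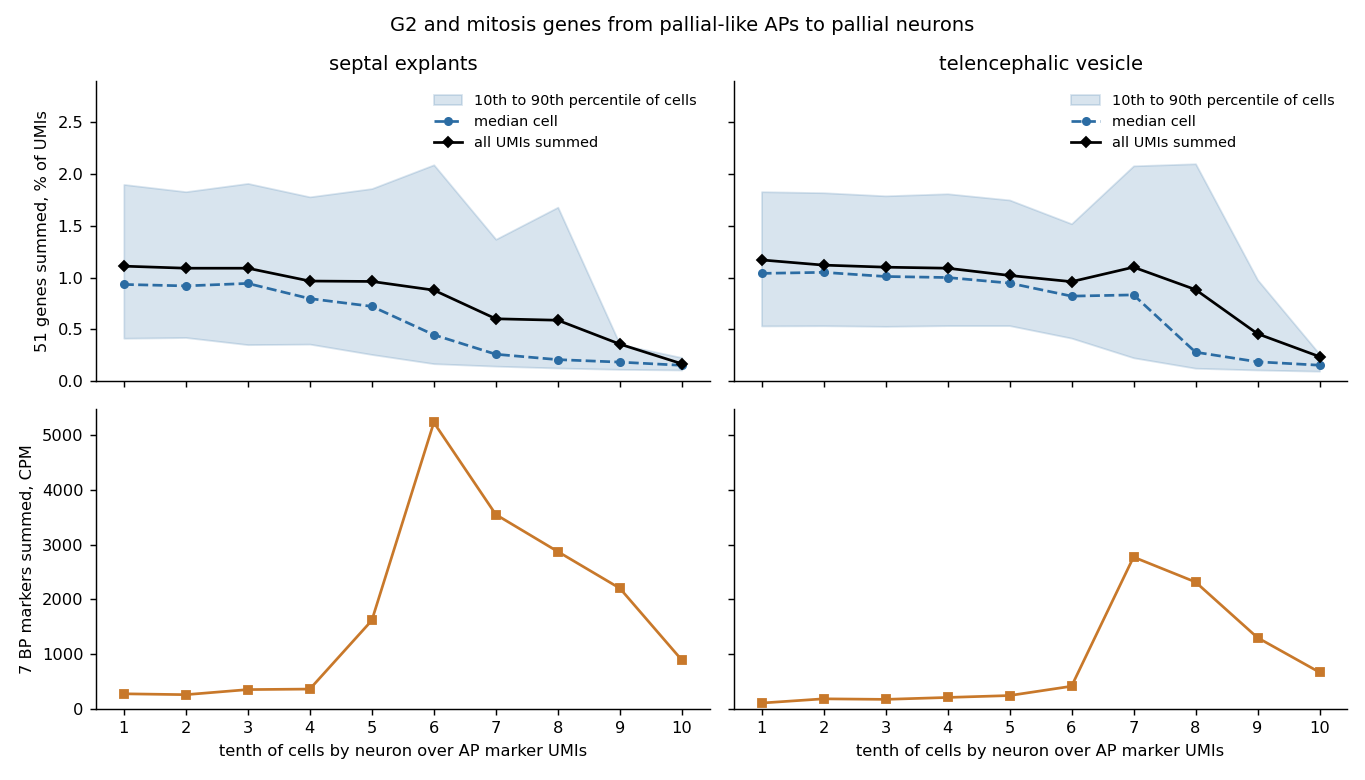
Pallial-like and VP-like APs, all BPs and pallial glutamatergic-like neurons in 10 groups ordered from AP-like to neuronal, for each library. Upper panels, share of UMIs from the 51 genes (percent), as the sum of the group (black), the median cell (blue) and the 10th to 90th percentile of cells (band). Lower panels, summed level of the 7 BP markers (CPM). The share holds near 1% over the first groups and reaches 0.166% in the last group of the septal explants and 0.235% in that of the telencephalic vesicle.

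Progenitor regions differed little in the summed level. In the septal explants the genes made up 1.06% of the UMIs in pallial-like APs (1.05 to 1.06), 1.12% in subpallial-like, 1.0% in septal-like and 0.892% in hem-like APs (0.879 to 0.904, 140 cells), and 1.19% in 446 APs given no region. In the E12 library the shares were 1.03% in pallial-like, 1.24% in VP-like (1.23 to 1.25), 1.14% in subpallial-like, 1.08% in septal-like and 1.06% in hem-like APs. The ratio to pallial-like APs in the septal explants was 1.06 for subpallial-like, 0.946 for septal-like and 0.843 for hem-like APs, and in the telencephalic vesicle it was 1.2 for VP-like, 1.11 for subpallial-like, 1.05 for septal-like and 1.03 for hem-like APs. Single clusters within a region spread as widely, from 0.836% to 1.27% among the pallial-like clusters and from 0.756% to 1.25% among the septal-like clusters of the septal explants. With a coarser clustering the hem-like ratio of the septal explants became 1.04, so that its direction rests on how clusters were drawn. Subpallial-like APs stood above pallial-like APs in both libraries under each alternative that was run (ratios of 1.03 to 1.19 and of 1.08 to 1.14).

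None of the 51 genes was past 2-fold between pallial-like APs and another AP region. Regions other than pallial-like were not called against each other. Gas2l3 stood at 38.3 CPM in VP-like and 18.8 CPM in subpallial-like APs of the telencephalic vesicle. For subpallial-like over pallial-like APs 0 genes were higher and 0 lower, against 4.18% and 2.83% of all genes in the septal explants and 5.29% and 2.87% in the telencephalic vesicle. For septal-like over pallial-like APs the shares over all genes were 7.41% higher and 2.55% lower in the septal explants, and 5.95% and 1.76% in the telencephalic vesicle. For hem-like over pallial-like APs they were 7.61% and 3.22%, and 8.36% and 2.5%. For VP-like over pallial-like APs of the telencephalic vesicle they were 2.91% and 3.58%. In APs given no region, set against pallial-like APs of the septal explants, Anln was nearest to 2-fold of all (1.95, 1.52 to 2.5). Among the named regions, set against pallial-like APs, the gene nearest to 2-fold was Gas2l3 in VP-like APs (ratio 1.86, 1.61 to 2.15). It was at 38.3 CPM against 20.6 CPM in pallial-like APs. VP-like APs are a class that 2 of the alternatives did not give. Kif11 followed in that class, at 169 against 101 CPM (1.68, 1.57 to 1.79). Gas2l3 was also highest in septal-like APs of the septal explants, at 20.1 against 12.1 CPM (1.67, 1.38 to 2.02). Anln was at 15.7 CPM in subpallial-like against 8.58 CPM in pallial-like APs of that library (1.83, 1.5 to 2.26). Aurkb was low in septal-like APs of the septal explants (0.678, 0.626 to 0.735) and in hem-like APs (0.631, 0.532 to 0.744). In the telencephalic library Ckap2, a spindle protein, had a ratio of 1.41 in subpallial-like APs (1.32 to 1.5), and Cenpf of 1.35 in hem-like APs (1.32 to 1.38). Top2a was at 612 CPM in subpallial-like and 446 CPM in pallial-like APs of that library.

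The share of APs at or above 0.5% differed between regions of the septal explants. It was 77.5% in pallial-like (74.6 to 80.2), 81.6% in subpallial-like (79.0 to 84.0), 67.0% in septal-like (63.6 to 70.3) and 56.1% in hem-like APs (47.2 to 64.7). In the telencephalic vesicle it was 87.1% in pallial-like, 93.4% in VP-like (90.1 to 95.8), 89.3% in subpallial-like, 87.6% in septal-like and 79.8% in hem-like APs (77.4 to 82.1). Hem-like APs as a class thus had the lowest share in both libraries, but single clusters within other regions lay lower. Before thinning, the median cell of the explants was at 0.616% in the hem-like cluster. It was at 0.343% and 0.240% in septal-like clusters of 214 and 46 cells. These shares were not taken under other clusterings, so that their order rests on how clusters were drawn. Before thinning the shares in the septal explants were 77.2% in pallial-like, 79.8% in subpallial-like, 63.0% in septal-like and 56.4% in hem-like APs. Median depths of the first 4 classes were 16255, 13458, 12835 and 13968 UMIs before thinning, so that septal-like APs were also the shallowest. Their BP markers were at 366, 393, 404 and 551 CPM, in the same order, highest in hem-like APs, as they were in the telencephalic vesicle (351 CPM in hem-like against 213 CPM in pallial-like APs). The part of BP-like cells in these shares was not tested. Subpallial-like cells past the AP side of the marker order, with 26.9% at or above the threshold in the explants and 62.6% in the vesicle, had summed levels of 0.584% and 1.13%. Thinning left out 62 of the 192 such cells of the explants, and before it 21.4% were at or above the threshold.

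Within APs the genes varied together to different extents. For each gene, the APs were ranked by the share of the other 50 genes, and the level in the highest 10% (323 of 3229 cells in the septal explants, 679 of 6792 in the telencephalic vesicle) was set against that in the remaining APs. The ranking used the genes themselves, so these values describe the list and test nothing. In the explant library 41 of the 51 genes were at least 2-fold higher in the top cells, against 1.72% of all genes, and in the telencephalic vesicle 23, against 1.14%. Gas2l3 had the highest ratio in both, 4.62 (3.97 to 5.36) and 3.03 (2.75 to 3.33). Ube2c followed in the septal explants, with 1902 CPM in the top cells and 429 CPM in the others (4.43, 4.33 to 4.53), and had a ratio of 2.61 in the telencephalic vesicle. Hmmr (3.99 and 2.70), Cdc20 (3.98 and 2.5), Aurka (3.95 and 2.35), Cenpf (3.92 and 2.61) and the microtubule bundler Nusap1 (3.87 and 2.54) came next. Cbx5 did not vary with the other 50 genes beyond counting error, with ratios of 1.05 (0.994 to 1.11) and 1.0 (0.969 to 1.04). Tmpo (1.2 and 1.11) and Anp32e (1.21 and 1.22) were next to it, followed by Lbr (1.51 and 1.32), Cks1b (1.6 and 1.59), a CDK1-binding subunit, and the condensin subunit Ncapd2 (1.82 and 1.28). Hmgb2, which gave most UMIs, had ratios of only 1.65 and 1.47.

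In BPs, Gas2l3 was again highest and Cbx5 lowest, with wider ratios. Of 572 BPs of the septal explants, the top 57 had Gas2l3 at 60.1 CPM against 3.61 CPM in the others (16.6, 10.1 to 28.4), Hmmr at 255 against 19.8 CPM (12.9, 10.3 to 16.1) and Cbx5 at 359.5 against 230.1 CPM (1.56, 1.38 to 1.76). In the vesicle library with 58 of 575 BPs on top, Gas2l3 had a ratio of 5.33 (3.57 to 7.92) and Cbx5 of 1.35 (1.19 to 1.53).

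**Figure D4:**
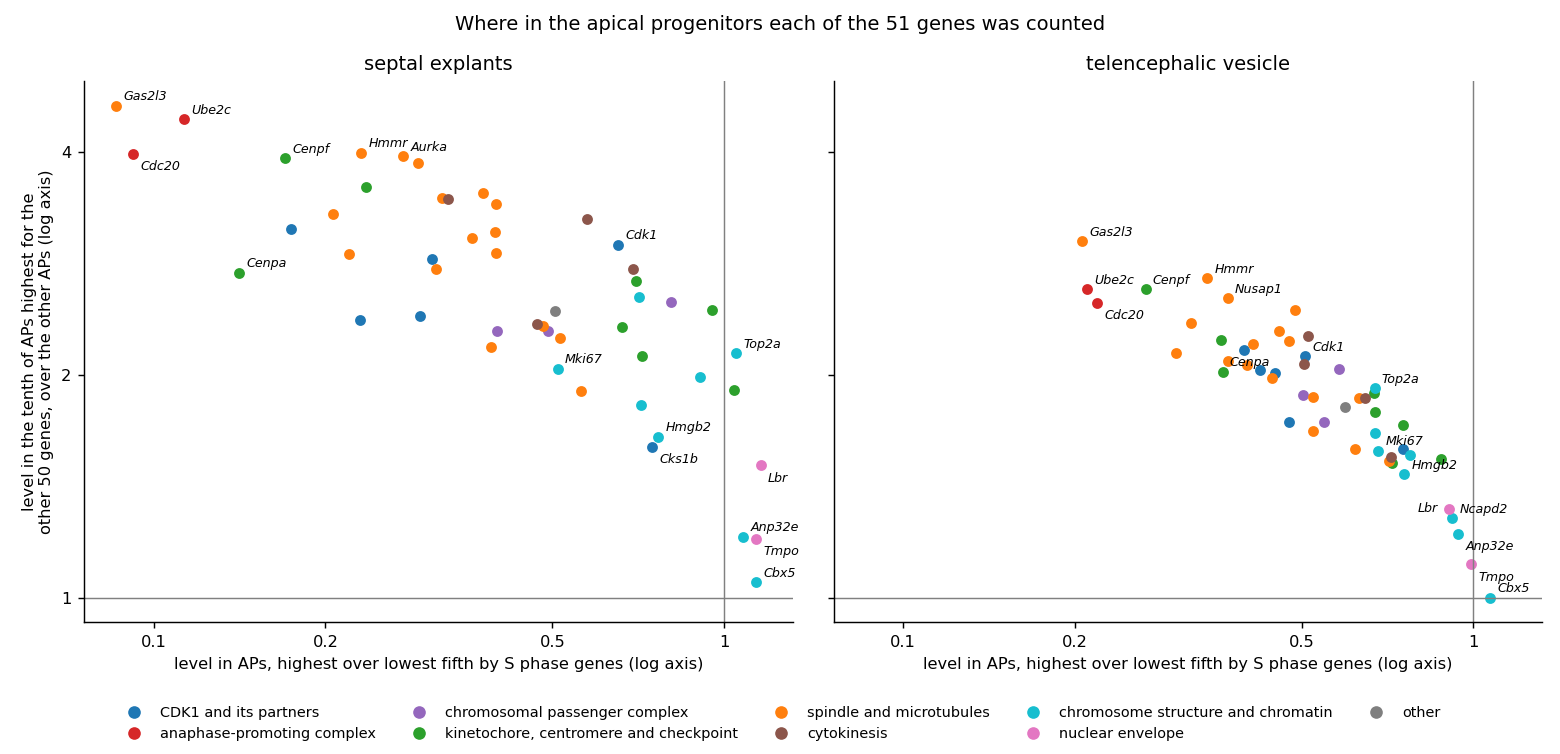
For each of the 51 genes, the ratio of its level in the 10% of APs highest for the other 50 genes over the remaining APs (vertical log axis), and the ratio of its level in the 20% of APs with most S phase UMIs over the 20% with fewest (horizontal log axis), in each library, coloured by role. Gas2l3, Ube2c, Cdc20 and Cenpf lie at the upper left, with 4.62 and 0.0860 for Gas2l3 in the septal explants, and Cbx5 and Tmpo lie near 1 on both axes.

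The position of APs along S phase, taken from S phase genes of which none is among the 51, gave an order that did not use the 51 genes. APs were divided into 5 groups of 20% by their share of S phase UMIs. The share of the 51 genes from the lowest to the highest group was 1.27%, 1.43%, 1.17%, 0.846% and 0.664% in the septal explants and 1.34%, 1.22%, 1.12%, 0.958% and 0.766% in the telencephalic vesicle. The share and the S phase share have the same denominator, all UMIs of the cell, so that a higher value of one lowers the other slightly by itself. The lowest group was mixed in the septal explants, where its 10th percentile was 0.193% and its 90th percentile 2.24%, and the highest was narrow, from 0.419% to 0.963%. Cells rich in S phase transcripts thus held an intermediate share of the 51 genes, well above that of neurons.

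Single genes ranged from low to level in S phase-rich APs, with many in between, such as Cdk1 (ratios of 0.652 and 0.506 of the highest to the lowest group), Mki67 (0.511 and 0.681) and Hmgb2 (0.767 and 0.756). In the highest against the lowest group, 28 of the 51 genes were at least 2-fold lower in the septal explants, against 4.10% of all genes, and 21 in the telencephalic vesicle, against 3.37%. Cdc20 went through 448, 467, 312, 126 and 41.3 CPM in the septal explants (ratio 0.0921, 0.0830 to 0.102) and from 257 to 56.4 CPM in the telencephalic vesicle (0.219). Ube2c went through 949.8, 983, 643, 251 and 107 CPM (0.113, 0.106 to 0.120) and from 1006 to 211 CPM (0.210). Gas2l3 was lowest of all in both, with ratios of 0.0860 (0.0542 to 0.131) and 0.206 (0.170 to 0.248). Cenpa had a ratio of 0.141 in the septal explants, Psrc1, a spindle protein, of 0.301 in the telencephalic vesicle, and Cenpf of 0.170 and 0.266. Cbx5 was slightly higher in S phase-rich APs, through 233, 239, 262, 267 and 265 CPM in the septal explants (1.14, 1.08 to 1.21) and with a ratio of 1.07 (1.03 to 1.1) in the telencephalic vesicle. Tmpo had ratios of 1.14 (1.08 to 1.19) and 0.989 (0.959 to 1.02), Lbr of 1.16 and 0.905. Top2a went through 325, 413, 367, 333 and 342 CPM in the septal explants, with the end groups nearly alike (1.05, 1.0 to 1.1). In the telencephalic vesicle its ratio was 0.671. The genes with high ratios in the ranking by the other 50 genes, Gas2l3, Ube2c, Cdc20 and Cenpf, were thus among the lowest in S phase-rich APs, and Cbx5 and Tmpo stayed near 1 in both.

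Genes outside the list behaved alike between APs and neurons. In a second list of G2 and M genes, 32 of 34 were at least 2-fold higher in APs than in neurons of the septal explants. Their median ratio was 9.46, and 18.3% of all genes were that much higher. In the telencephalic vesicle 33 of 34 were (median 5.42), against 20.1% of all genes. The most abundant in APs of the septal explants were the lamin Lmnb1 at 395 CPM, the cyclin Ccnb1 at 263 CPM and the cyclin Ccna2 at 248 CPM. Lmnb1 was short of 2-fold there (1.79, 1.71 to 1.86) and at 2.02 in the telencephalic vesicle, where it stood at 409 CPM, and Pttg1, the anaphase inhibitor securin, was short of 2-fold in both. Lmnb1 was followed in the telencephalic vesicle by the condensin Smc2 at 264 CPM and by Ccnb1 and Prc1, both at 184 CPM. In BPs over APs, Wee1, the kinase that inhibits CDK1, had a ratio of 0.345 (0.242 to 0.478) in the explants and 0.556 in the vesicle. Cdc25b, a CDK-activating phosphatase, was higher in BPs in both, with ratios of 1.4 (1.29 to 1.51) and 2.54 (2.3 to 2.8). Cdc25b thus stood out from the sums, which were 0.682 and 0.940 for this list.

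A search over all genes with at least 200 UMIs in pallial-like APs gave those most like the list, by the ratio between the 10% of pallial-like APs richest in the 51 genes and the rest. In the septal explants (91 of 907 cells, 6866 genes) these were Troap (4.89, 3.73 to 6.38), Fam83d (4.63), Arhgef39 (4.54), Tuba1c (4.49), Aspm (4.22), Prc1 (4.15), Ccnb1 (3.82), Arl6ip1 (3.73), Ccnf (3.71) and Plk1 (3.70). In the E12 library (150 of 1500 cells, 9962 genes) they were Prc1 (3.24, 3.01 to 3.47), Ppfia2 (3.15), Gsx2 (3.12), Aspm (3.11), Reep4 (3.10), Gm30382 (3.03), Fst (2.95), Miip (2.93), Gm11457 (2.9) and Troap (2.81). Aspm, a spindle pole protein, Prc1, a bundler of the central spindle, and Troap were in both sets. Arhgef39 in the septal explants, and Ppfia2, Gsx2, Gm30382, Fst, Miip and Gm11457 in the telencephalic vesicle, were in none of the cell cycle lists used here. Gsx2, a transcription factor of subpallial progenitors, stood at only 5.2 CPM in the remaining pallial-like APs, with an interval of its ratio from 2.09 to 4.54. Ppfia2, Gm30382 and Gm11457 were about as scarce there, at 5.77, 6.30 and 5.61 CPM. Their intervals ran from 2.16 to 4.49, 2.11 to 4.28 and 1.95 to 4.20. Gsx2 and these genes lay near the minimum, with 200 to 241 UMIs, and were picked as extremes of many genes.

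In the explant library cells could be split by reporter. APs with tdTomato UMIs (203 cells) held 1.04% and APs with YFP (1978 cells) 1.07%, a ratio of 0.970 (0.959 to 0.981). In pallial-like APs the ratio was 0.985 (0.966 to 1.0, 64 and 460 cells), in subpallial-like APs 0.939, in septal-like APs 0.951, in BPs 0.867 (0.843 to 0.891, 68 and 349 cells) and in neurons 0.795 (0.758 to 0.834, 84 and 492 cells). The ratio in APs turned to 1.1 when at least 2 tdTomato UMIs were asked for. tdTomato marks the E12.5 embryos with Dbx1Cre and YFP the E11.5 embryos with PGKCre, so that age, genotype and a history of Dbx1 expression cannot be told apart in these ratios.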

How the data were processed

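The 2 libraries hold droplet single-cell RNA of embryonic mouse brain. The authors deposited raw counts, the number of UMIs per gene and barcode without normalisation. Per the submitters' processing notes these were made with Cell Ranger 2.1.1 (septal explants) and 7.1.0 (telencephalic vesicle) on mm10. Whether intronic reads were counted is not given in the sources used here, so levels were never compared between libraries.

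Barcodes were filtered after the study's methods, by a mitochondrial share within 3 median absolute deviations of the median (383 and 1812 barcodes removed) and by doublet calls of Scrublet as built into Scanpy 1.11.5 (60 barcodes, 1.10%, and 713, 5.72%). UMI counts were set to a sum of 10000 in each cell and logged, and 2000 variable genes without cell cycle genes, 30 components, 15 neighbours and Leiden clustering (python-igraph 0.11.9) at resolution 1.5 gave 27 and 28 clusters. Clustering was computed in double precision, because runs in single precision differed in the sizes of classes. Clusters were named from fixed marker lists, and the naming rule was adjusted once after clusters were seen. The genes and lists were chosen with earlier results of these data known. Genes named with values are the most abundant of each role, and the 5 highest and 5 lowest by each ratio. The extremes between regions and along S phase, Cenpe, Pttg1, Wee1, Cdc25b and Gsx2 were singled out after their values were seen.

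Levels are UMIs of a gene over all UMIs of a class, with exact Poisson intervals, and ratios have an interval from the exact binomial of both counts. These intervals cover counting error only. Shares of cells have Clopper-Pearson 95% intervals, which take the cells of a library as independent draws. No interval covers the spread between embryos. Cells were thinned to 8000 and 3500 UMIs before shares of cells and rankings were taken. A gene was called past 2-fold with at least 50 UMIs in both classes together. Reporter cells had at least 1 tdTomato or at least 3 YFP UMIs, and cells with both (24 APs) were left out. The ratios and calls were tested on simulated counts. Ckap5, Lbr, Ncapd2 and Top2a overlap small RNA or intronic genes on the same strand, and 0 of the 51 overlap another protein-coding gene. For 5 genes with more than 1 promoter window the first listed was used. Other tools were Python 3.11.15, SciPy 1.17.1, NumPy 2.4.6, scikit-learn 1.9.0 and matplotlib 3.10.9.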

Additional observations from a re-analysis of the deposited data

How the results depend on the processing

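Of 116 alternative values for 16 results, 35 stayed within counting error of the reported value or, for counts of genes, within 1.5 times it, 81 moved further and 7 ratios lay on the other side of 1. No paired analysis was possible because each condition has 1 library. Another random start of the clustering was added as an alternative after seeing the data. It and resolution 0.8 gave no VP-like class. The counts of genes past 2-fold between APs and neurons ran from 46 to 48. Where no cause is named, the cause was not tested.

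In the order of all deposited barcodes, resolution 0.8, resolution 2.5, another random start, cell cycle genes kept in the clustering, mean over cells and without the 3 genes with most UMIs, the summed level in APs over neurons was 4.02, 4.08, 4.22, 5.03, 5.68, 4.91 and 5.05 in the septal explants (reported 5.23) and 2.60, 3.23, 3.00, 3.10, 3.42, 4.01 and 3.47 in the telencephalic vesicle (3.68). In the same order BPs over APs gave 0.755, 0.768, 0.728, 0.808, 0.672, 0.620 and 0.712 in the septal explants (0.695) and 0.974, 0.983, 1.01, 1.01, 0.978, 0.906 and 0.976 in the telencephalic vesicle (1.03).

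For regions over pallial-like APs, again in that order, septal-like APs gave 0.835, 0.963, 0.997, 0.967, 0.983, 0.908 and 0.925 in the septal explants (0.946) and 1.06, 1.08, 1.05, 1.07, 1.03, 1.03 and 1.07 in the telencephalic vesicle (1.05). Subpallial-like APs gave 1.03, 1.08, 1.09, 1.07, 1.19, 1.06 and 1.04 in the septal explants (1.06) and 1.13, 1.14, 1.11, 1.13, 1.11, 1.08 and 1.12 in the telencephalic vesicle (1.11). Hem-like APs gave 0.961, 1.04, 0.891, 0.851, 0.871, 0.797 and 0.824 in the septal explants (0.843) and 1.07, 1.06, 1.05, 1.06, 1.04, 1.01 and 1.05 in the telencephalic vesicle (1.03). VP-like APs of the telencephalic vesicle (1.2) gave 1.21 with all barcodes, 1.22 at resolution 2.5, 1.21 with cell cycle genes kept, 1.24 over cells and 1.22 without 3 genes.

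The share of APs at or above 0.5% was 74.4% and 88.9% without thinning, 94.5% and 97.9% at a threshold of 0.25%, and 42.4% and 49.6% at 1%, in the septal explants and the telencephalic vesicle. The ratio of tdTomato to YFP APs (0.970) was 0.952 at resolution 2.5, 0.932 over cells, 1.1 with at least 2 tdTomato UMIs and 0.984 with at least 1 YFP UMI. Depth, at a median of 8503 UMIs per barcode in the telencephalic vesicle, limits single cells more than sums.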
